A study of Homo sapiens with 9 samples.

Results

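The subunits of the transcription factor NF-κB and the inhibitors that NF-κB itself induces were followed in U937 cells, a human line of monocytic character that the labels call a lymphoma line, after a brief heat stress. The set comprised 10 genes, namely RELA, REL, RELB, NFKB1 and NFKB2 for the subunits, and NFKBIA, NFKBIE, NFKBIZ, BCL3 and TNFAIP3 for the inhibitors and feedback regulators. A gene was measured through the probe sets that the platform annotation assigns to its symbol and to no other. This gave 19 probe sets for 9 of the 10 genes, out of 19775 genes on the array. Both BCL3 probe sets are shared with a microRNA gene in that annotation, so BCL3 has no value here.

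RNA came from 9 samples, each read on 1 array. The control cells stayed at 37 °C, with no time given in its label. The other 8 samples were held for 15 min at 42 °C or at 44 °C and were then returned to 37 °C for 0, 1, 3 or 6 h. The labels name no genetic change or drug, all samples are of the same line, and the series title names heat-induced apoptosis as its subject. With 1 array per condition the spread between samples of a condition is unknown and no test could be run. A gene is said to have risen or fallen where its signal differed by 2-fold or more, which is a log2 difference of 1 or more, and every smaller difference is given as a value only. The RNA was bulk RNA, in which fewer cells of a type and less RNA per cell cannot be told apart.

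In resting cells NF-κB dimers are held in the cytoplasm by IκB proteins such as IκBα, the product of NFKBIA. Signals from TNF, interleukin-1 or Toll-like receptors activate the IκB kinase complex, the IκB proteins are degraded, and the freed dimers enter the nucleus and switch on genes for cytokines, chemokines and survival factors. Among their targets are genes of their own brakes: NFKBIA, NFKBIE and TNFAIP3, whose product A20 edits ubiquitin chains on the signalling adaptors, and NFKBIZ, whose product IκBζ is a nuclear IκB that modulates a subset of targets. Monocytic cells rely on this circuit for their inflammatory response.

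The start sites of several members carry letters that match the κB consensus, the sequence NF-κB binds. RefSeq promoter windows on GRCh38.p14, from 250 bases before to 50 bases after a start, were found for 8 of the 10 genes, 13 windows in all. The κB consensus, searched by name on both strands, was present in 9 of these windows and in 7 of the 8 genes. Over all 35116 windows of the same length it was present in 11.3%. Sites of some feedback genes and subunit genes are shown. The matches of NFKB2, of BCL3 and of the second NFKBIZ window are not shown. RELA had no match, and RELB and NFKBIE had no window. Matches were in TNFAIP3 and NFKBIZ, which rose. They were also in NFKBIA, REL, NFKB1 and NFKB2, which by the brightest probe set did not reach 2-fold against the control. The sites shown are written 5′ to 3′ on the gene's strand, with each κB match in capitals and overlapping matches run together.
TNFAIP3, chr6:137867167-137867238, plus strand: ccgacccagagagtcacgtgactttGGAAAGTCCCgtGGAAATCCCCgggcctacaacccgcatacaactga
NFKBIZ, chr3:101827742-101827801, plus strand: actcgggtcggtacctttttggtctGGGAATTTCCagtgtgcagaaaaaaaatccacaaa
NFKBIA, chr14:35404796-35404855, minus strand: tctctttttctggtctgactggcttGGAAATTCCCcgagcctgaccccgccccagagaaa
REL, chr2:60881502-60881562, plus strand: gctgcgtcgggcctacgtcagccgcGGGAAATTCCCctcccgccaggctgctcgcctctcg
NFKB1, chr4:102501285-102501344, plus strand: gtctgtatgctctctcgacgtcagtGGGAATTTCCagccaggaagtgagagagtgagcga
The first bases of the TNFAIP3 matches lie 67 and 55 bases upstream of the start, and the NFKBIA match begins 81 bases upstream. Those of NFKB1 and REL begin at 49 and 47 bases, and that of NFKBIZ at 223 bases, in the farther upstream of its 2 windows. All lie upstream of the annotated start.

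A heat shock element, the site of heat shock factors, was searched as GAANNTTCNNGAA and its reverse complement TTCNNGAANNTTC. It was in 0.490% of the windows and in none of the 13 member windows. For comparison, the heat-induced chaperone gene HSPA6 holds one that begins 74 bases upstream of its start, shown with the element in capitals.
HSPA6, chr1:161524441-161524503, plus strand: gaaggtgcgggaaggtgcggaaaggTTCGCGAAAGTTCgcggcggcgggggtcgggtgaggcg
A match in these windows is a description of the letters and not a measured binding site, and the absence of a match says nothing on sites elsewhere.

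The heat treatment could be read from chaperone and co-chaperone genes. Of 6 checked (HSPA6, DNAJB1, BAG3, HSPH1, HSPB1 and SERPINH1), 6 rose on every 42 °C array, and 0, 3, 6 and 6 rose at 0, 1, 3 and 6 h after 44 °C. The 44 °C array at 0 h therefore stood close to the control in this respect, with HSPA6 at a log2 difference of -0.07 there and at 5.10 on the 42 °C array of the same time. Of 14 measured myeloid markers, 11 were above the floor on every array, with a summed signal between 12326 and 19030, whereas the 6 T cell markers summed to between 15.8 and 54.9 and the 5 B cell markers to between 64.1 and 139. The B cell genes CD79A (21.9 to 65.4) and PAX5 (28.4 to 63.6) were nevertheless above the floor on all 9 arrays. Their signals resembled those of the dim myeloid markers CSF1R (26.7 to 44.8) and ITGAM (25.6 to 54.8). The erythroid gene HBB was above the floor on 7 arrays, reaching 28.9. The 7 epithelial and fibroblast markers summed to 30.7 in the control, to 86.1, 194, 176 and 325 at 0, 1, 3 and 6 h after 42 °C, and to 45.5, 63.6, 138 and 220 after 44 °C, with up to 3 above the floor and COL1A1 reaching 268. This list was lowest in the control, as NFKBIZ was, and its part in the results was not tested. The myeloid genes MPO, FCGR1A and CD14 were under the floor on every array. Deposited signals had been brought to a common trimmed mean of 100 with factors of 0.474 to 0.989, and between 48.3% and 52.6% of probe sets per array lay above the floor of 12.5.

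TNFAIP3 and NFKBIZ were the members that rose after heat. Each was 2-fold or more above the control on 6 of the 8 heated arrays, and the other 7 measured members were so on none. Of the 72 differences between a member and the control, 12 reached 2-fold, and all 12 were increases in these 2 genes. The highest signals of both came 1 h after 42 °C.

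TNFAIP3 is the ubiquitin-editing brake on TNF and Toll-like receptor signalling. Its brighter probe set, 202644_s_at, read 97.6 in the control, then 246.1, 431.9, 230.7 and 226.0 at 0, 1, 3 and 6 h after 42 °C, and 89.6, 134.7, 196.9 and 206.8 after 44 °C. The 42 °C arrays were all above the control from the end of heating onwards, whereas the 44 °C array at 0 h was slightly below it and those at 3 and 6 h were the first of that series to reach 2-fold. As folds of the control, the 42 °C values were 2.52, 4.43, 2.36 and 2.32, and the 44 °C values were 0.918, 1.38, 2.02 and 2.12. The other probe set of the gene, 202643_s_at, read 58.6 in the control, 116.1, 216.4, 105.1 and 120.0 after 42 °C, and 48.2, 71.5, 73.8 and 101.3 after 44 °C. It had the same sign as the first in all 12 comparisons, with its largest difference from the control 3.69-fold at 42 °C and 1 h, and it reached 2-fold on 2 of the 8 heated arrays, at 1 and 6 h after 42 °C. It gave log2 differences of 0.99 and 0.84 at 0 and 3 h after 42 °C and stayed under 2-fold on every 44 °C array. With both probe sets averaged, the log2 difference at 3 and 6 h after 44 °C was 0.67 and 0.94, and with arrays scaled to one median that at 6 h after 42 °C was 0.95, each under the 2-fold limit.

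NFKBIZ encodes the nuclear IκB protein IκBζ, an inducible cofactor of NF-κB in myeloid cells. Its brighter probe set, 223218_s_at, read 51.9 in the control, 119.2, 270.8, 117.6 and 90.4 at 0, 1, 3 and 6 h after 42 °C, and 87.9, 116.2, 169.0 and 105.6 after 44 °C. The control was the lowest of the 9 arrays, so all 8 heated arrays lay above it, and the time of the highest signal was 1 h after 42 °C and 3 h after 44 °C. The differences came to 2.30, 5.22, 2.27 and 1.74-fold after 42 °C and to 1.69, 2.24, 3.26 and 2.04-fold after 44 °C. The other probe set, 223217_s_at, read 26.8 in the control, 103.7, 257.5, 106.7 and 89.3 after 42 °C, and 39.2, 76.7, 95.7 and 52.4 after 44 °C. It too was lowest in the control and highest at 42 °C and 1 h, where it was 9.62-fold above the control, and the widest gap between both probe sets over the 12 comparisons was 0.99 on the log2 scale. Averaging them left NFKBIZ at 6 h after 44 °C at 1.00, just under the limit, and brought it at 6 h after 42 °C to 1.27.

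**Figure D1:**
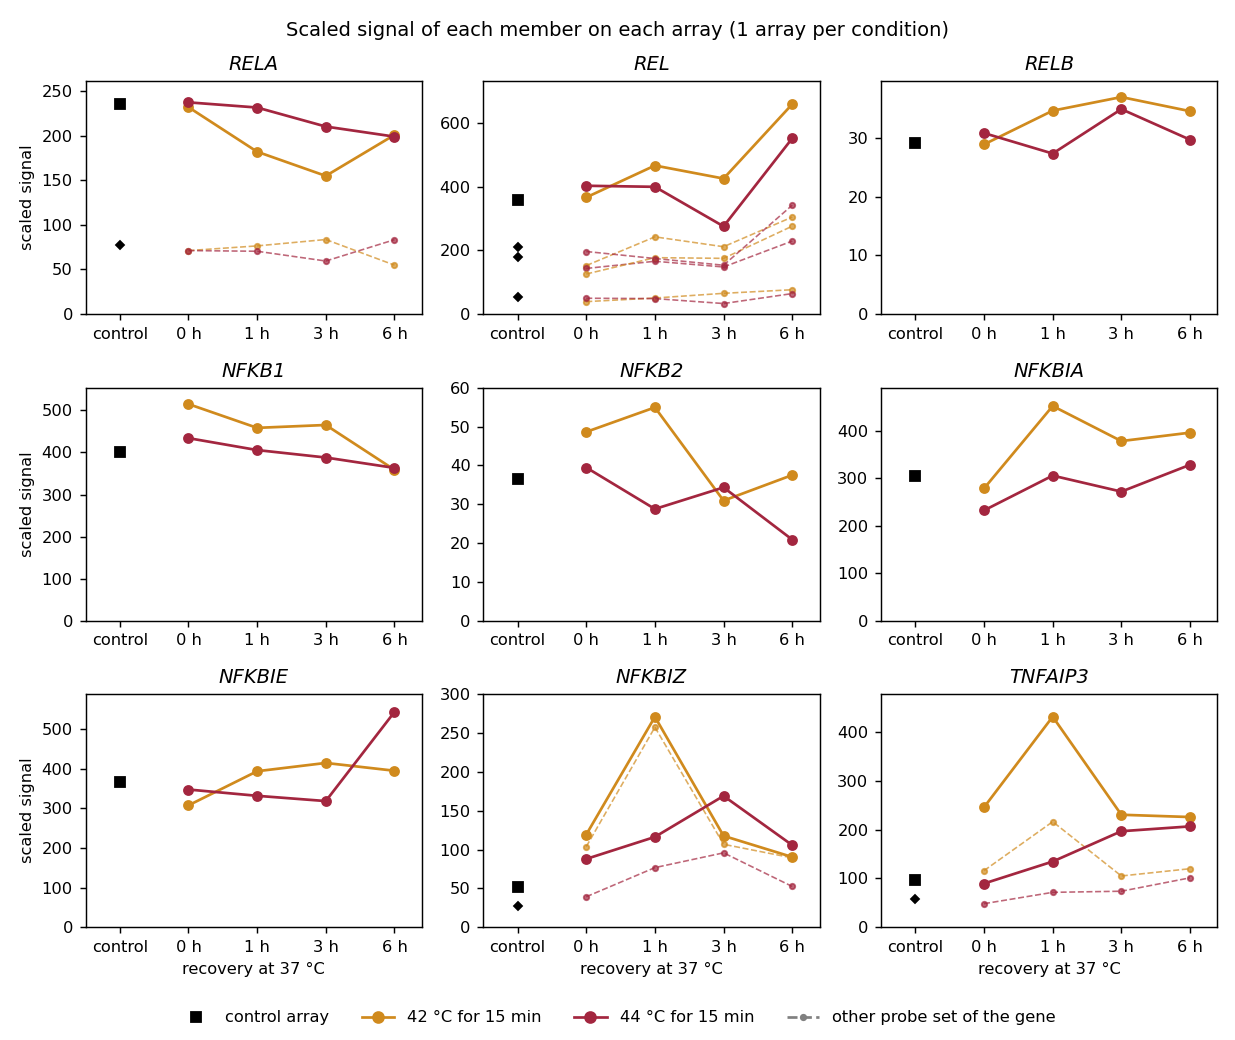
Scaled signal of each of the 9 measured members on the 9 arrays, by hours at 37 °C after 15 min at 42 °C or 44 °C, with times evenly spaced and the control marked. Solid lines are the brightest probe set of a gene and dashed lines its other probe sets above the floor on every array. TNFAIP3 and NFKBIZ peak at 431.9 and 270.8 at 1 h after 42 °C, and RELA, RELB and NFKB1 span less than 1.6-fold.

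Read against all genes, 2 of 9 members rose at 0 h after 42 °C, where 1.48% of the genes above the floor on one or both arrays did. The count was 2 of 9 at 1 h against 3.01% of genes, 2 of 9 at 3 h against 3.13%, and 1 of 9 at 6 h, TNFAIP3, against 4% of genes. After 44 °C, no member differed by 2-fold at 0 h, where 3.03% of genes did in either direction. NFKBIZ alone rose at 1 h, against 1.49% of genes, and both genes rose at 3 h and at 6 h, against 1.9% and 4.08% of genes. Comparisons with the control share that single array, so an error in its value would move all 8 of them together. By the brightest probe set, no member was 2-fold lower than the control on any array.

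The rank of both genes was highest at 1 h after 42 °C. At 1 h after 42 °C, NFKBIZ was number 33 and TNFAIP3 number 41 from the highest difference among 12452 genes. At 0 h they were number 99 and number 71 of 12395. At 3 and 6 h after 42 °C NFKBIZ was number 248 and 917, and TNFAIP3 number 215 and 269. After 44 °C TNFAIP3 was number 8181 of 12318 at 0 h, in the lower part of the list, and number 221 of 12113 at 3 h, while NFKBIZ was number 54 at that time. NFKBIZ was number 96 at 1 h after 44 °C, so both of these ranks were ahead of its rank at 0 h after 42 °C.

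**Figure D2:**
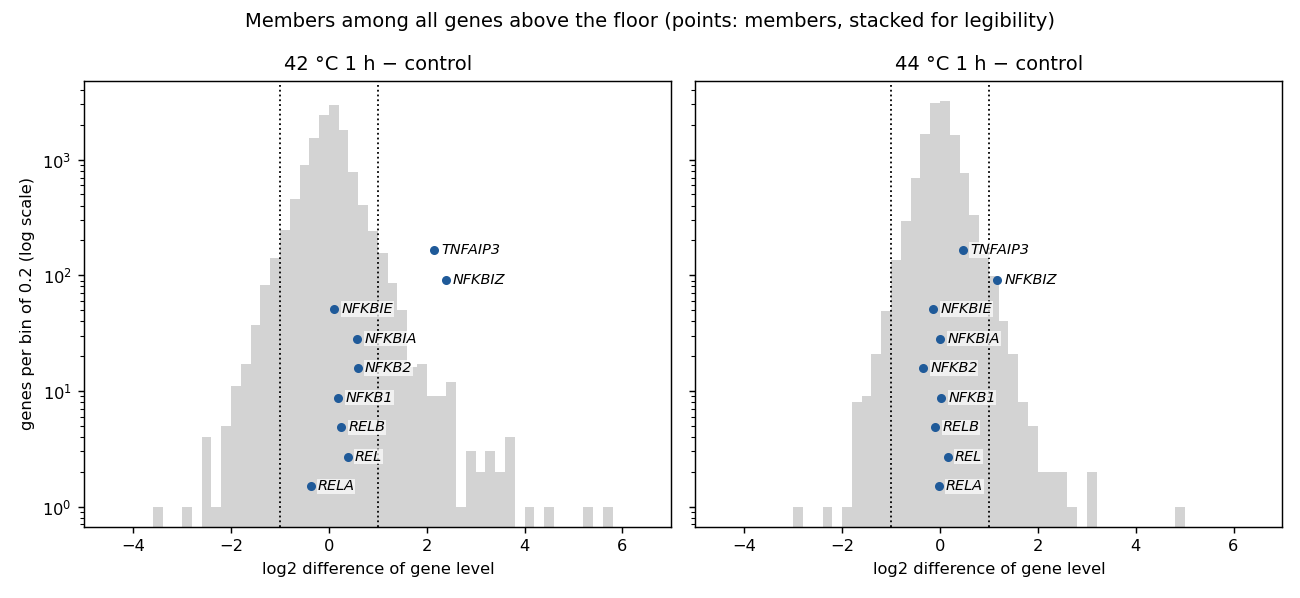
Histogram of the log2 difference from the control over all genes above the floor on one or both arrays, at 1 h after 42 °C and 1 h after 44 °C, with the 9 members as points whose vertical position is arbitrary. NFKBIZ (2.38) and TNFAIP3 (2.15) lie in the right tail after 42 °C, and after 44 °C they lie at 1.16 and 0.47.

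Between successive times after 42 °C, NFKBIZ rose by 1.18 from 0 to 1 h on the log2 scale, a step at which 3.26% of genes rose, and fell by 1.20 from 1 to 3 h, a step at which 2.44% of genes fell. TNFAIP3 followed with differences of 0.81 and -0.90 at the same steps and of -0.03 from 3 to 6 h. By its second probe set TNFAIP3 fell by 1.04 from 1 to 3 h. From 3 to 6 h NFKBIZ differed by -0.38. After 44 °C no step of either gene reached 2-fold. These steps were 0.40, 0.54 and -0.68 for NFKBIZ, and 0.59, 0.55 and 0.07 for TNFAIP3.

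NFKBIA, the gene of IκBα and the classical early feedback target, stayed within 2-fold of the control on every array. Its signal was 304.5 in the control, 278.8, 452.6, 378.7 and 396.4 at 0, 1, 3 and 6 h after 42 °C, and 232.5, 305.9, 272.1 and 328.6 after 44 °C. The highest value fell on the same array as those of TNFAIP3 and NFKBIZ, at 1.95 times the lowest, which was the 44 °C array at 0 h. The log2 difference from the control was 0.57 at 42 °C and 1 h, after -0.13 at 0 h, and between -0.39 and 0.11 after 44 °C. A further NFKBIA probe set was at or under the floor on every array.

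NFKBIE encodes IκBε, an IκB that preferentially holds REL and RELA dimers. It read 366.4 in the control, 307.6, 393.7, 414.6 and 395.0 after 42 °C, and 347.5, 331.7, 318.4 and 543.2 after 44 °C. The last of these, at 6 h, was the highest of the 9 and stood apart from the other 8, with a log2 difference of 0.57 from the control and of 0.77 from the 44 °C array at 3 h. No NFKBIE difference reached 2-fold.

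RELA encodes p65, the main activating subunit. Its brighter probe set read 236.1 in the control, 232.0, 182.1, 155.0 and 200.9 after 42 °C, and 237.4, 231.6, 210.3 and 199.0 after 44 °C. The values after 42 °C were lowest at 3 h, with a log2 difference of -0.61, but the second probe set gave its highest signal, 83.6, on that same array against 77.6 in the control, so the probe sets did not bear each other out. RELB, the subunit of the alternative pathway, lay between 27.4 and 37.0 on all arrays with 29.2 in the control, a span of 1.35-fold.

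REL encodes c-Rel, a subunit most used in blood cells. Its brightest probe set, 235242_at, read 358.8 in the control, 367.1, 467.3, 426.3 and 660.3 after 42 °C, and 403.6, 400.3, 275.9 and 552.8 after 44 °C. The 6 h arrays of both temperatures were the highest ones, with log2 differences of 0.88 and 0.62 from the control. All 3 other REL probe sets above the floor on every array also read higher at 6 h than in the control at both temperatures: 206036_s_at at 305.2 and 229.7 against 179.0, 228812_at at 276.5 and 342.5 against 210.0, and 239486_at at 76.6 and 64.4 against 55.0. From 3 to 6 h after 44 °C REL rose by 1.00 on the log2 scale, a step at which 2.17% of genes rose. The same step was 1.55, 2.23 and 1.94-fold by the other probe sets, and the mean over all 5 REL probe sets was 0.75 on the log2 scale, so that this call rests on the choice of probe set.

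NFKB1 and NFKB2 encode p105 and p100, precursors that act as IκB proteins until processed to the subunits p50 and p52. NFKB1 read 400.5 in the control, 515.2, 458.6, 465.4 and 358.9 after 42 °C, and 434.1, 405.8, 388.0 and 363.3 after 44 °C. In each series its 0 h array was highest and its 6 h array lowest, over a total span of 1.44-fold. NFKB2 read 36.6 in the control, 48.6, 55.0, 30.9 and 37.5 after 42 °C, and 39.5, 28.8, 34.3 and 20.9 after 44 °C. Its widest difference from the control was -0.81, at 6 h after 44 °C. NFKB2 was dim. Its second probe set, 209636_at, was highest in the control at 28.0, was below that on all 4 arrays after 42 °C, with 17.8 as the lowest at 6 h, and read 14.9, 2.6, 12.0 and 9.8 after 44 °C. At 1, 3 and 6 h after 44 °C it was under the floor and at least 2.23-fold below the control, a decrease that the brighter probe set did not show at that size. A further probe set was at or under the floor throughout.

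Over the 7 members that never reached 2-fold by the brightest probe set, the 56 differences from the control ran from -0.81 to 0.88. The sign of some of them depended on the scaling. RELB was above the control on 6 of 8 arrays, and on 4 with the arrays scaled to one median. NFKB1 moved in the same way from 5 arrays to 3. NFKBIZ stayed above the control on 8 arrays and TNFAIP3 on 7, both with that scaling and with quantile normalisation.

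**Figure D3:**
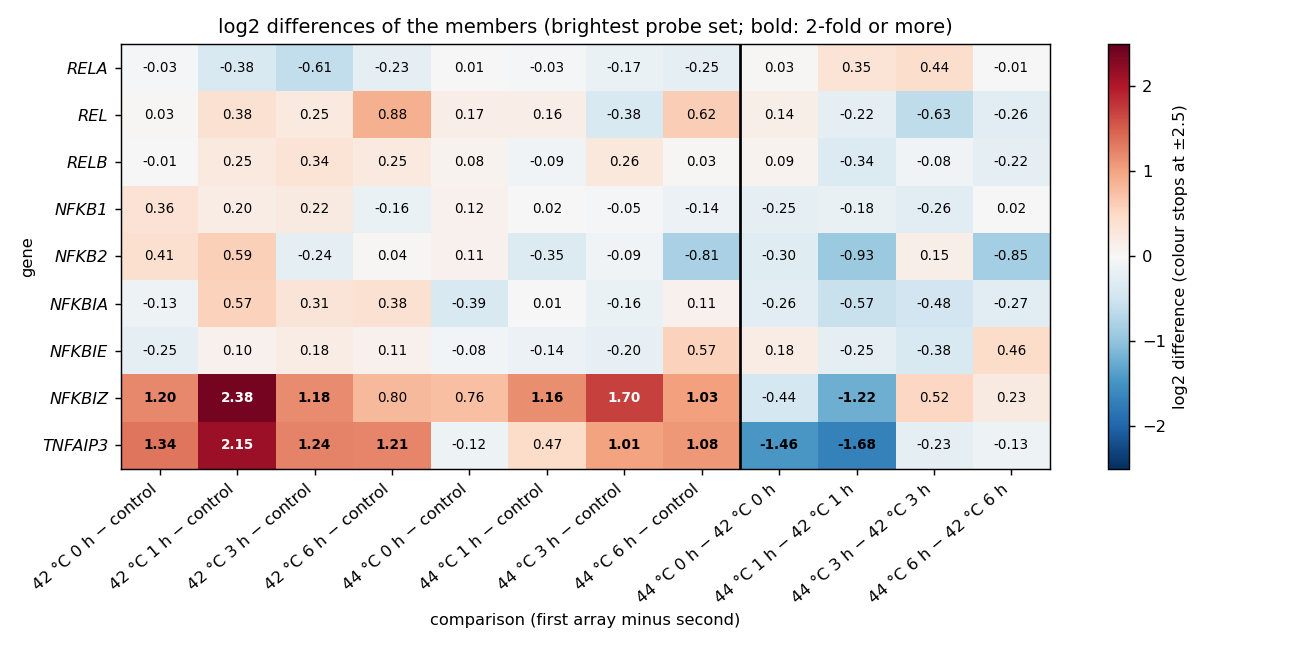
Log2 difference of each member (brightest probe set) from the control on the 8 heated arrays, by hours after 42 °C or 44 °C. Further columns give the difference of 44 °C from 42 °C at the same recovery time. Values of 1 or more in size are 2-fold differences. Against the control, NFKBIZ and TNFAIP3 reach this on 6 arrays each, and the other 7 genes lie between -0.81 and 0.88. Between temperatures at 1 h, TNFAIP3 is at -1.68, NFKBIZ at -1.22 and NFKB2 at -0.93.

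In the direct comparison of temperatures at the same recovery time, TNFAIP3 had the widest difference of the members at 0 h and at 1 h by the brightest probe sets. By the second probe sets NFKBIZ was wider at both times. At 0 h TNFAIP3 was 2.75-fold lower after 44 °C than after 42 °C, the 1 member of 9 that differed by 2-fold, at a background of 1.19% of genes that fell. At 1 h TNFAIP3 was 3.21-fold lower and NFKBIZ 2.33-fold lower, 2 of 9 members against 2% of genes. TNFAIP3 was number 48 from the lowest of 12527 genes at 0 h and number 38 of 12541 at 1 h. At 3 h and 6 h no member differed by 2-fold between temperatures, where 3.18% and 3.45% of genes did in either direction. NFKBIZ had a log2 difference of 0.52 at 3 h and 0.23 at 6 h, whereas its second probe set gave -0.16 and -0.77, and TNFAIP3 had narrowed to -0.23 and -0.13. At 1 h the second probe sets gave log2 differences of -1.60 for TNFAIP3 and -1.75 for NFKBIZ. At 0 h they gave -1.27 and -1.40, where the brighter NFKBIZ probe set gave -0.44.

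The TNFAIP3 signals of the 4 arrays after 42 °C, from 226.0 to 431.9, did not overlap those of the 4 after 44 °C, from 89.6 to 206.8. This held for 1 of 9 members and for 2.86% of 14453 genes, and it was looked for after the values had been seen. The second TNFAIP3 probe set was likewise separated, by 105.1 against 101.3 at the nearest values. TNFAIP3 and NFKBIA were lower after 44 °C at each of the 4 times, as were 10% of genes, but with scaling to one median the 6 h difference turned to 0.20 for TNFAIP3 and to 0.061 for NFKBIA. Under that scaling the TNFAIP3 signals of both temperatures by the brighter probe set therefore overlapped. The heat check genes moved with this comparison, 5, 4, 2 and 0 of the 6 being 2-fold lower after 44 °C at 0, 1, 3 and 6 h. The scaling factors also lay apart, from 0.623 to 0.989 for the 42 °C arrays and from 0.474 to 0.581 for the 44 °C arrays. The part of either in the TNFAIP3 difference was not tested.

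For the members whose signal spanned 2-fold or more, the genes with the most similar profile over the 9 arrays were taken from 3311 genes that were above the floor throughout and also spanned 2-fold. For TNFAIP3 these were AGPAT4-IT1 (Pearson r 0.97), ADRB1 (0.95) and GCNA (0.93). For NFKBIZ they were GPR89B (0.92), DAPK1-IT1 (0.89) and PRKD3 (0.88). REL was closest to RRN3P2 (0.95), MARCHF6 (0.95) and ZNF443 (0.94), and NFKB2 to NECTIN1 (0.92), DNAAF3 (0.91) and SMARCAL1 (0.91). TNFAIP3 and NFKBIZ correlated with each other at 0.79. These are descriptions over 9 arrays that share their scaling and control, and the genes were picked as the best of 3311.

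Upstream of the subunits, the kinases and adaptors had few calls, as had all genes. Of 22 listed kinases and adaptors 19 were measured and above the floor, and in the 8 comparisons with the control at most 1 rose and 1 fell, where between 1.37% and 4.08% of all genes rose and between 0.735% and 4.87% fell, with medians between -0.21 and 0.07 where the medians of all genes lay between -0.05 and 0.03. IKBKB, the catalytic subunit that phosphorylates IκB proteins, had log2 differences between -0.13 and 0.35, and CHUK, its partner kinase, between -0.43 and 0.07. MAP3K14, the NF-κB-inducing kinase of the alternative pathway, fell 2.11-fold at 1 h and at least 2.54-fold at 3 h after 42 °C, the latter against the floor. BCL10, an adaptor of antigen receptor signalling, rose 2.15-fold at 3 h after 42 °C by its brightest probe set, where its others gave log2 differences of 0.07 and 0.22.

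Among receptors that feed the pathway, both TNF receptors fell after 42 °C. Of 16 listed and measured, 8 to 12 were above the floor in a comparison. After 42 °C 1, 1, 3 and 2 fell at 0, 1, 3 and 6 h and none rose, and after 44 °C 2 fell and 1 rose at 6 h. Of all genes 3.84%, 2.43%, 4.87% and 3.68% fell at the same times after 42 °C, and 4.3% fell at 6 h after 44 °C. With so few receptors measured, counts of 1 are near these shares. TNFRSF1A, the main TNF receptor, fell 2.33-fold at 1 h and 2.28-fold at 3 h after 42 °C, from 773 in the control. TNFRSF1B, the second TNF receptor, fell 2.12-fold at 3 h and 2.18-fold at 6 h after 42 °C and 2.62-fold at 6 h after 44 °C. The first of these was -0.98 on the log2 scale with quantile normalisation. LTBR, the lymphotoxin β receptor of the alternative pathway, fell 2.04-fold and 2.43-fold on the 6 h arrays. Its other probe sets were at or under the floor in these comparisons. The averages over all its probe sets, -0.26 and -0.32, therefore include values held at the floor. LY96, the co-receptor of TLR4, fell 2.59-fold at 0 h after 42 °C, and IL1RAP, the interleukin-1 co-receptor, fell 2.64-fold at 3 h after 42 °C, with -0.26 on the log2 scale by its other probe set. TLR4, the lipopolysaccharide receptor, rose 2.25-fold at 6 h after 44 °C by its brightest probe set, with 0.34 to 0.66 on the log2 scale by the others.

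Ligands were few, and moved in both directions. TNF, IL1A and LTB were dim. TNFSF13B was bright, at 4286 in the control and 2758 to 4524 on the heated arrays, and never differed from the control by 2-fold. Of 8 listed, 7 were measured and up to 5 were above the floor in a comparison. TNF, which activates the pathway and is also its target, read 52.7 in the control, fell 2.07-fold at 0 h after 42 °C and at least 4.20-fold at 3 h, when it was under the floor, and had a difference of 0.28 at 6 h. With quantile normalisation the 0 h difference was -0.91. IL1B, the gene of interleukin-1β, rose 2.66-fold at 3 h after 42 °C and 2.03-fold at 3 h after 44 °C, with log2 differences of 1.39 and 1.10 by its other probe set. IL1A rose 2.45-fold and 2.13-fold on the 6 h arrays. The averages over all its probe sets, 0.65 and 0.55 on the log2 scale, include values held at the floor. LTB rose 2.96-fold and 2.95-fold at 1 and 6 h after 42 °C by one probe set, whereas the other gave -0.49 and -0.71.

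The other negative regulators had few calls by their brightest probe sets. Of 16 listed, 15 were measured and 14 were above the floor, and 0, 0, 1 and 2 rose after 42 °C and 0, 0, 0 and 2 after 44 °C at 0, 1, 3 and 6 h, with medians between -0.00 and 0.16. At the same times 1, 1, 1 and 0 fell after 42 °C and 0, 0, 1 and 0 after 44 °C. Of all genes 1.48%, 3.01%, 3.13% and 4% rose and 3.84%, 2.43%, 4.87% and 3.68% fell after 42 °C. After 44 °C 1.37%, 1.49%, 1.9% and 4.08% rose and 1.66%, 0.735%, 2.3% and 4.3% fell. Counts of 1 among 14 genes are near these shares, whereas the 2 of 14 that rose at 6 h are above them. TNIP1, which binds A20, did not reach 2-fold by its brightest probe set, while its other one gave log2 differences of 1.22 and 1.03 at 1 h after 42 °C and 44 °C, and the ubiquitin ligase gene ITCH gave 1.71 by one of its other probe sets at 1 h after 44 °C. CYLD, a deubiquitinase that removes the chains on which signalling complexes assemble, rose 3.28-fold and 2.38-fold on the 6 h arrays of 42 °C and 44 °C, with 0.78 and 0.73 on the log2 scale over all its probe sets. OTULIN, which removes linear ubiquitin chains, rose 2.20-fold at 3 h and 2.04-fold at 6 h after 42 °C and 2.89-fold at 6 h after 44 °C, although its other probe sets ran from -0.33 to 1.33 at the first of these and scaling to one median gave 0.76 at the second. NFKBID, another nuclear IκB, fell 2.58-fold and 2.02-fold at 0 and 1 h after 42 °C and 2.59-fold at 3 h after 44 °C, and its other probe set gave -0.53, 0.03 and -0.45. TRAF3, which restrains the alternative pathway, fell 2.25-fold at 3 h after 42 °C by one probe set and gave 0.57 by the other.

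Established target genes of NF-κB did not move as one group. Of 32 listed, 30 were measured and 21 to 24 were above the floor in a comparison with the control. After 42 °C 1, 3, 4 and 0 rose and 7, 3, 1 and 3 fell at 0, 1, 3 and 6 h, and after 44 °C 1, 1, 3 and 1 rose and 1, 0, 1 and 2 fell. Of all genes 1.48%, 3.01%, 3.13% and 4% rose and 3.84%, 2.43%, 4.87% and 3.68% fell after 42 °C, and 1.37%, 1.49%, 1.9% and 4.08% rose and 1.66%, 0.735%, 2.3% and 4.3% fell after 44 °C. The 7 decreases among 22 targets at 0 h after 42 °C compare with 3.84% of genes, and counts of 1 are near the background. Their medians were -0.56, 0.02, 0.22 and 0.19 after 42 °C and -0.43, -0.06, 0.15 and 0.11 after 44 °C.

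Of the targets, GADD45B rose on 6 of 8 arrays, and IER3 and PTGS2 rose on 3 each. GADD45B, a stress sensor that dampens JNK signalling, rose 2.96-fold at 0 h, 2.95-fold at 1 h and by 1.43 on the log2 scale at 3 h after 42 °C, and 2.80, 2.79 and 2.08-fold at 1, 3 and 6 h after 44 °C, with a difference of -0.10 at 0 h there. Averaged over its probe sets, the 44 °C values were under 2-fold. IER3, an immediate early survival gene, rose 3.16-fold and 2.90-fold at 1 and 3 h after 42 °C and 3.94-fold at 3 h after 44 °C. SOD2, the mitochondrial superoxide dismutase, rose 2.73-fold at 3 h after 42 °C, and PTGS2, the inducible cyclooxygenase, rose at least 2.58-fold at 3 h after 44 °C and at least 2.57-fold and 2.65-fold at 1 and 3 h after 42 °C, from a control value under the floor. Its other probe set gave 0.14 at 3 h after 44 °C.

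CCL2 fell on 5 of 8 arrays, more than any other target. CCL2, the monocyte chemoattractant, read 1464 in the control and fell 3.30, 3.93, 3.67 and 4.77-fold at 0, 1, 3 and 6 h after 42 °C, and 5.74-fold at 6 h after 44 °C. CXCL8, the neutrophil chemoattractant interleukin-8, fell 2.74-fold at 0 h after 42 °C, with -0.64 by its other probe set, and CCL20 fell at least 3.54-fold at 6 h after 42 °C. PLAU, the urokinase gene, fell 2.49-fold at that time, BCL2A1, a survival gene of the BCL2 family, fell 2.28-fold at 0 h after 44 °C, and NLRP3, an inflammasome sensor, fell 2.11-fold at 6 h after 44 °C (-0.99 with quantile normalisation). PLAU also fell by 2-fold or more at 0 and 1 h after 42 °C, and NLRP3, IRF1 and XIAP did at 0 h after 42 °C. JUNB did so at 0 and 1 h after 42 °C and at 3 h after 44 °C. CXCL2 rose 2.01-fold at 0 h after 44 °C from a dim control value of 19.9, and was under 2-fold with quantile normalisation (0.93).

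**Figure D4:**
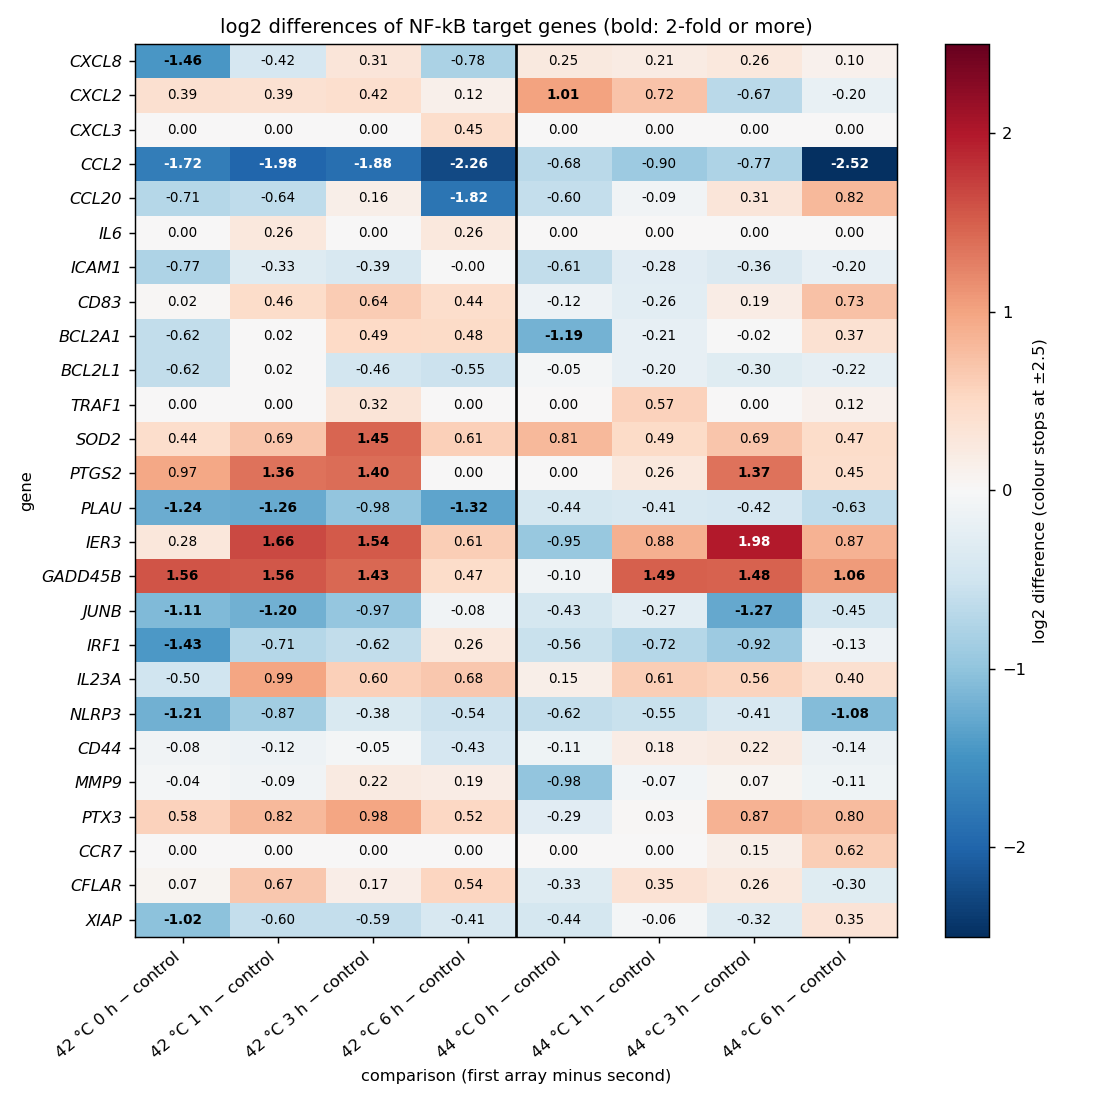
Log2 difference from the control of the 26 measured NF-κB target genes above the floor on some array, on the 8 heated arrays, as a colour scale. IER3 and GADD45B are higher at 1 and 3 h after 42 °C and at 3 h after 44 °C, and CCL2 is lower on all 8 arrays. PLAU and JUNB fall and PTGS2 rises by 2-fold on some arrays, and each other gene reaches 2-fold on few arrays or none.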

How the data were processed

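Total RNA of each sample was labelled as biotin-cRNA and hybridised to Affymetrix U133 Plus 2.0 arrays, per the labels' protocols. The deposited values are linear intensity values for 54675 probe sets, MAS5 signals per the submitters' processing notes. Their scaling target is not given in the sources used here. Arrays were multiplied to a common trimmed mean of 100 (2% off each end, 54613 non-control probe sets). A floor was set at 12.5, the median over every scaled value, before log2 (Python 3.11.15, numpy 2.4.6, pandas 2.3.3). This scaling assumes that most genes keep their level, and the floor makes folds of dim genes bounds. Genes were named from platform annotation, using the 41097 probe sets with 1 symbol; the 1801 with several and the 11777 with none were not named. A gene is represented by its brightest probe set, by mean log2 over the arrays. The 12 comparisons were the 8 heated arrays with the control and 44 °C with 42 °C at 4 times. With 1 array per condition there is no test, and the number of arrays limits the precision. Simulated data, made from 1 array with small noise and changes beyond 2-fold in bright genes, served to check that the processing returns folds put in. They say nothing of the spread between real arrays or of dim genes. The members and the pathway lists were chosen with earlier results of these data known. Named were all members, up to 3 genes of each list with the largest size among those 2-fold or more in a comparison with the control, the heat check genes, and the 3 genes most like each member that spans 2-fold. IKBKB, CHUK, TNIP1 and ITCH were named for their role or probe sets after their values were seen. JUNB, IRF1, XIAP and TNFSF13B were likewise named afterwards, to fill in their lists. Other scalings, floors, probe set rules, baselines and a 1.5-fold limit were tried. Promoter windows are RefSeq's.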

Additional observations from a re-analysis of the deposited data

Results flagged for a closer look

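TNFAIP3 rose at the end of heating at 42 °C and stayed near the control at 44 °C. On the 42 °C array at 0 h its log2 difference from the control was 1.34, and on the 44 °C array at 0 h it was -0.12, a difference of opposite sign but far under 2-fold. The second probe set gave 0.99 and -0.28. Each value comes from 1 array and both share the control, so the difference between temperatures was not tested. The heat check genes differed between the same arrays, with 6 of 6 raised by 2-fold at 42 °C and 0 of 6 at 44 °C, and their part in the TNFAIP3 difference was not tested.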

How the results depend on the processing

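No paired analysis was possible because each condition has 1 array and no replicate number. Of 702 values of a member in a comparison under an alternative, 686 kept their side of the 2-fold limit and their direction where called. Quantile normalisation and both other floors changed none of the 108 values each. A lower floor could change none, as the brightest probe set of every measured member lay above the floor on every array. A higher floor can only shrink differences, and the lowest NFKBIZ and TNFAIP3 signals were 51.9 and 89.6. The floor values, which are part of the 702, therefore put the calls to little test. With scaling to one median the count of 2-fold members at 42 °C and 6 h went from 1 to 0. With the median or the mean over probe sets it was 2 there, 1 at 44 °C and 3 h (2 before), and 0 at 44 °C and 6 h (2 before). Against the 0 h array of the same temperature, which for 42 °C is itself raised, the counts were 1, 0 and 0 at 1, 3 and 6 h after 42 °C and 0, 1 and 1 after 44 °C, and 3 of the values that had been 2-fold changed sign: NFKBIZ to -0.020 and TNFAIP3 to -0.093 at 3 h, and TNFAIP3 to -0.12 at 6 h after 42 °C. A 1.5-fold limit gave 3 members at 42 °C and 6 h, 1 at 44 °C and 0 h, 4 at 44 °C and 6 h, and 1 each between temperatures at 3 and 6 h. It also added NFKB2 at 42 °C and 1 h (0.59) and RELA at 42 °C and 3 h (-0.61). Between temperatures at 1 h it added NFKB2 (-0.93). More of all genes also pass a 1.5-fold limit than a 2-fold one. The member counts under these alternatives are given without the share of all genes. They describe the members only and cannot be read against a background. At 42 °C and 1 h NFKBIZ ran from 2.18 to 2.83 and TNFAIP3 from 1.95 to 2.21 over 6 alternatives. Of the 324 step values 321 stayed, and the other 3 are the REL step from 3 to 6 h after 44 °C. Of 51 values of list genes, 23 fell short of 2-fold with the mean over probe sets, in which probe sets at the floor count, and 4 with quantile normalisation. Of 468 list counts, 354 stayed within 1.5 times. Scaling to one median moved the median of all genes by -0.24 at 42 °C and 6 h and by 0.32 between temperatures at 6 h, and the share of 2-fold genes that were higher went from 52.1% to 20.1% and from 38.3% to 84.8% there. The signal over background limits NFKB2, RELB and the ligands TNF, IL1A and LTB.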
